A study of Mus musculus with 12 samples.

Results

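Stat5a and Stat6 encode latent transcription factors of the STAT family, and their mRNAs were followed in mast cells in which the RNA-binding proteins Regnase-1 and Regnase-3 had been targeted by siRNAs. The members were the rows named Stat5a and Stat6 in the raw count table, 2 of 754 probes for endogenous and reference genes, and both were among the 496 probes that were tested. They were picked because earlier results of these counts had shown them higher after Regnase depletion, so their differences between siRNA groups are given here as a description and carry no test. The cells were bone marrow-derived mast cells (BMMCs), grown in IL-3 for at least 4 weeks from bone marrow of C57BL/6 mice aged 6 to 8 weeks. Cells of 3 mice received siGLO, a fluorescent transfection indicator used as control, a cocktail against Zc3h12a (group si12A), a cocktail against Zc3h12c (si12C) or both cocktails (si12A+C), which gave 4 groups of 3 samples, 1 per mouse. All 12 samples, controls included, were activated with IgE and antigen for 2 h at 48 h after transfection, so none shows the resting state. From each, 50 ng of total RNA was hybridised to a NanoString panel, in which a barcoded probe pair is counted on the transcript it binds. The RNA came from whole cultures, so fewer cells that express a transcript and less RNA per cell cannot be told apart.

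STAT proteins wait in the cytoplasm until a Janus kinase (JAK) bound to a cytokine receptor phosphorylates them, after which they form dimers, enter the nucleus and switch on target genes. STAT5A and its close relative STAT5B act downstream of IL-3, GM-CSF, IL-2 and KIT, the stem cell factor receptor, and mast cells depend on STAT5 for their development and survival. STAT6 is the main transducer of IL-4 and IL-13 and drives type 2 responses, including class switching to IgE in B cells. Regnase-1, encoded by Zc3h12a, is an endoribonuclease that cuts mRNAs of inflammatory genes, and Regnase-3, encoded by Zc3h12c, is a related protein of the same family.

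The siRNAs are shown because they define the groups. Each cocktail held 4 of them, printed as the study lists them, 5′ to 3′ and with no capitals. Zc3h12a lies on chromosome 4 and Zc3h12c on chromosome 9 of the mouse.
Zc3h12a siRNA 1: gcagagatcctgtcttaca
Zc3h12a siRNA 2: gagcgaggccacacagata
Zc3h12a siRNA 3: gaaatgtacgtatggaatc
Zc3h12a siRNA 4: gaaagggctggtgtatata
Zc3h12c siRNA 1: gcccaagtctggataattt
Zc3h12c siRNA 2: gcacttaagttaggttatt
Zc3h12c siRNA 3: gcactacacctttaagcaa
Zc3h12c siRNA 4: ggatattattccatgttga
Neither target had a probe among the 754 used here, so the depletion itself was not analysed here and the groups are named by the siRNA given.

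In the mouse annotation Stat5b, Stat5a and Stat3 are consecutive protein-coding genes on chromosome 11, and Stat6 lies on chromosome 10 between Lrp1 and Nab2. Stat5a and Stat5b stand next to each other on opposite strands. Each has 2 windows around start sites, and their upstream parts were searched for the best ungapped match of 30 bases between the genes. The 30 bases below are shown because these paralogs, whose probes are compared further on, share 28 of them (RefSeq, GRCm38.p6). Capitals mark the 2 bases that differ, and each sequence is written 5′ to 3′ on the strand of its gene.
Stat5a, chr11:100860435-100860464, plus strand: gcagctgacctttGagGaggaaatcgctgc
Stat5b, chr11:100822581-100822610, minus strand: gcagctgacctttTagAaggaaatcgctgc
The stretch lay 49 to 20 bases before the start site of its Stat5a window and 40 to 11 bases before that of its Stat5b window. The paired elements to which STAT dimers are known to bind, TTCNNNGAA for most STATs and TTCNNNNGAA for STAT6, were searched on both strands of the 300-base windows around start sites. They were found in 0 of 8 windows of Stat3, Stat4, Stat5a, Stat5b and Stat6, against 8.30% and 6.95% of all 32851 windows. No match says only that these letters are not in the windows read.

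The libraries held 447310 to 819974 counts. Their background, the mean plus 2 SD of the 8 negative control probes, ran from 15.3 to 25.9 counts. All 9 mast cell markers on the panel, among them Kit, Fcer1a, Ms4a2 and Cpa3, were above it in every library. Of 10 macrophage and monocyte markers, 8 were above background in no library of siGLO, si12A or si12C. In si12A+C that was so for 7, since Cd14 passed it in 2 libraries. The summed scaled level of these 10 markers was 203 to 329 in siGLO, 158 to 218 in si12A, 164 to 289 in si12C and 151 to 248 in si12A+C. Thus no library of the targeted groups exceeded the highest siGLO library. Cx3cr1, a chemokine receptor of monocytes and the most abundant of them, had log2 fold changes of -0.85 ± 0.18 in si12A and -1.06 ± 0.19 in si12A+C against siGLO (SE, edgeR with the mouse as a block, adjusted p = 0.0180 and 0.00449). Adgre1, the macrophage antigen F4/80 and the only other one tested, had -0.76 ± 0.25 and 0.21 ± 0.23 and did not pass (adjusted p = 0.0676 and 0.718). The part of these cells in the values of Stat5a and Stat6 was not tested.

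On counts scaled with TMM, given below, Stat5a was lowest in siGLO, higher in si12C, higher again in si12A and highest in si12A+C, in each of the 3 mice. In mouse 1 the raw counts in that order of groups were 96, 149, 198 and 176, in mouse 2 they were 39, 53, 68 and 101, and in mouse 3 they were 138, 213, 372 and 398. After TMM scaling, which sets each library to a common size, they became 88.1, 129.6, 167 and 187 in mouse 1. The scaled counts were 61.3, 75.5, 77.4 and 132 in mouse 2 and 145, 197, 273 and 318 in mouse 3. In mouse 2 si12C and si12A were close, and their order changed with the scaling. The lines of the 3 mice did not cross, mouse 2 being lowest and mouse 3 highest in every group. The lowest Stat5a count, 39 in siGLO of mouse 2, stood at 1.94 times the background of its library, and the highest, in si12A+C of mouse 3, at 22.1 times.

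After the same scaling Stat6 was also lowest in siGLO and next lowest in si12C in all 3 mice, though these 2 lay close in mouse 3, at 289 and 294. The groups si12A and si12A+C were close to each other. The raw counts in siGLO, si12C, si12A and si12A+C were 304, 367, 466 and 368 in mouse 1, 81, 118, 178 and 167 in mouse 2, and 275, 318, 556 and 503 in mouse 3. Scaled, they were 279, 319, 393 and 390.3 in mouse 1, 127, 168, 203 and 218 in mouse 2, and 289, 294, 409 and 402 in mouse 3. Mice 1 and 3 nearly coincided in siGLO, si12A and si12A+C, and mouse 2 lay below both in every group. Every Stat6 count was at least 4.03 times the background of its library.

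**Figure D1:**
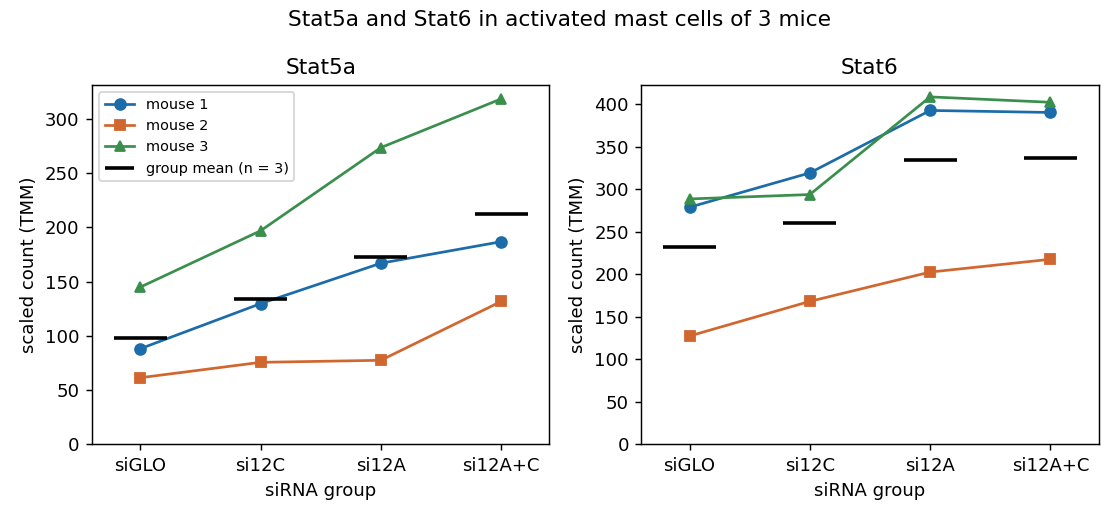
TMM-scaled counts (vertical axis) of Stat5a and Stat6 in the 4 siRNA groups (horizontal axis), with 1 line per mouse and black bars for the group means (n = 3). Stat5a climbed from siGLO to si12A+C in each mouse, from 61.3 to 132 in the lowest, while Stat6 levelled off between si12A and si12A+C.

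As group means, Stat5a was at 98.1 ± 42.6 scaled counts in siGLO, 134 ± 60.8 in si12C, 173 ± 98.1 in si12A and 212 ± 95.9 in si12A+C (SD, n = 3). Stat6 was at 232 ± 90.4, 260.4 ± 80.9, 335 ± 115 and 337 ± 103 in the same order. The mice differed widely, and the ranges of every pair of groups overlapped for both genes. Each sample was therefore also set against the sample of the same mouse.

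Within mice, si12A+C against siGLO gave the largest and most even difference of Stat5a, at 1.08, 1.10 and 1.14 on the log2 scale (mean 1.11 ± 0.03, SD, n = 3), or 2.12, 2.15 and 2.20 times. For si12A against siGLO the log2 differences were 0.92, 0.34 and 0.92 (mean 0.72 ± 0.34), with mouse 2 clearly below the others. For si12C against siGLO they were 0.56, 0.30 and 0.44 (mean 0.43 ± 0.13). Each mean exceeded the SD of the 3 mice. In mouse 2 the count of Stat5a was small enough that counting error alone spans much of this range: its ratio to siGLO was 1.26 in si12A (exact 95% interval 0.839 to 1.92) and 1.23 in si12C (0.799 to 1.91). In si12A+C the ratio of that mouse was 2.15 (1.47 to 3.19). These intervals cover counting error only.

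For Stat6 the single and the combined targeting of Zc3h12a gave nearly equal differences. The log2 differences from siGLO in mice 1, 2 and 3 were 0.49, 0.67 and 0.50 in si12A (mean 0.56 ± 0.10, SD, n = 3) and 0.49, 0.77 and 0.48 in si12A+C (mean 0.58 ± 0.17). With si12C they were 0.20, 0.40 and 0.03 (mean 0.21 ± 0.19), a mean scarcely above its SD. The ratios of Stat6 to siGLO ran from 1.39 to 1.71 over si12A and si12A+C and from 1.02 to 1.32 over si12C. For si12C the exact 95% interval of counting error held 1 in each mouse, at 0.981 to 1.34, 0.987 to 1.77 and 0.864 to 1.20. It excluded 1 in the other 6 of the 9 ratios.

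Between the siRNA groups, the mean differences of Stat5a and Stat6 parted in the step from si12A to si12A+C. Stat5a was higher in si12A+C than in si12A by 0.16, 0.77 and 0.22 in mice 1, 2 and 3 (mean 0.38 ± 0.33 log2, SD, n = 3), most of it in mouse 2. There it rested on raw counts of 68 and 101, and counting error is not given for this step. Stat6 had -0.01, 0.10 and -0.02 in the same step (mean 0.02 ± 0.07), so these neighbours in the order did not differ beyond their spread. From si12C to si12A+C the mean differences were 0.67 ± 0.14 for Stat5a and 0.37 ± 0.08 for Stat6. From si12C to si12A they were 0.29 ± 0.23 and 0.35 ± 0.11, with Stat5a of mouse 2 at 0.04. The sum of both single differences from siGLO exceeded the combined difference of Stat6 in 3 of 3 mice, by 0.20, 0.30 and 0.05, and that of Stat5a in mice 1 and 3 but not in mouse 2 (combined minus sum -0.05 ± 0.46).

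Fitted with edgeR across all tested probes and with the mouse as a block, the log2 fold changes of Stat5a against siGLO were 0.78 ± 0.14 in si12A, 0.45 ± 0.15 in si12C and 1.12 ± 0.14 in si12A+C (SE). Those of Stat6 were 0.54 ± 0.11, 0.19 ± 0.11 and 0.56 ± 0.11. Without the block the estimates hardly moved, at 0.81, 0.45 and 1.11 for Stat5a and 0.53, 0.17 and 0.54 for Stat6, while the SE grew to 0.52 for Stat5a and 0.40 for Stat6. The 4 groups ranked in the same way in all 3 mice for 9 of 496 tested probes (1.81%), and 2 of them had the order of Stat5a, the other being Tnfaip3. A level that was lowest in siGLO in all 3 mice was found in 25 probes (5.04%). Stat5a and Stat6 were chosen on these group differences, so these shares are no evidence about them.

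The difference between mice, which had no part in the choice of the genes, was large for both. A mouse here is a replicate number of the labels, so mouse, culture and experiment cannot be told apart. Over the 4 groups Stat5a averaged 143, 86.4 and 233 scaled counts in mice 1, 2 and 3, and Stat6 averaged 345, 179 and 348. The mouse terms passed edgeR's quasi-likelihood F test for Stat5a (F = 67.5, adjusted p = 2.03e-06) and Stat6 (F = 61.9, adjusted p = 3.06e-06), as they did for 57.7% of the 496 probes. Stat5a ranked 36 and Stat6 ranked 40 among them by p. Without mouse 2 the Stat6 difference did not pass (adjusted p = 0.999), while for Stat5a mice 1 and 3 differed (F = 75.9, adjusted p = 0.00189). Of the other STAT genes, Stat5b (adjusted p = 0.00237) and Stat3 (adjusted p = 0.00507) also differed between mice, and Stat4 (adjusted p = 0.858) did not pass.

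Probes for Stat3, Stat4 and Stat5b, each above background in all 12 libraries, allowed both genes to be set beside relatives. Stat5b, the paralog of Stat5a, was measured at 51, 23 and 51 raw counts in siGLO of mice 1, 2 and 3. It stood at 85, 38 and 119 in si12A, 83, 28 and 67 in si12C and 66, 35 and 95 in si12A+C. The counts of mouse 2 in siGLO and si12C were within 1.15 times the background, which limits what they show. Against siGLO Stat5b was higher in 3 of 3 mice in si12A, si12C and si12A+C, as were 25.4%, 18.8% and 20% of all tested probes. Its log2 fold changes in these groups were 0.56 ± 0.17, 0.36 ± 0.18 and 0.49 ± 0.17 (SE, edgeR with block, adjusted p = 0.0614, 0.816 and 0.113), and none passed. How far the Stat5a and Stat5b probes bind each other's transcript was not tested, since the probe sequences were not used here.

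Stat3, a transducer of IL-6 type cytokines, had log2 fold changes of 0.38 ± 0.15, 0.00 ± 0.16 and 0.26 ± 0.16 in si12A, si12C and si12A+C (adjusted p = 0.125, 0.999 and 0.411). Stat4, a transducer of IL-12, stood at 58.8 to 69.4 scaled counts in si12A and at 39.3 to 49.3 in siGLO, without overlap. That was also so for 15.1% of all tested probes in this comparison, and the fold change of Stat4, 0.54 ± 0.19, did not pass (adjusted p = 0.0919). In si12A+C Stat4 was back at 0.05 ± 0.20 against siGLO, and it was lower than in si12A in 3 of 3 mice (-0.49 ± 0.19, adjusted p = 0.321). In mouse 2 Stat4 was near the floor, at 25 raw counts in siGLO and 28 in si12A+C. These were 1.24 and 1.32 times the background, which limits what they show. In si12A Stat3, Stat4 and Stat5b were each higher than siGLO in 3 of 3 mice, as were 25.4% of all tested probes, but the mean of Stat3 turned to -0.01 when scaled on the positive control probes.

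**Figure D2:**
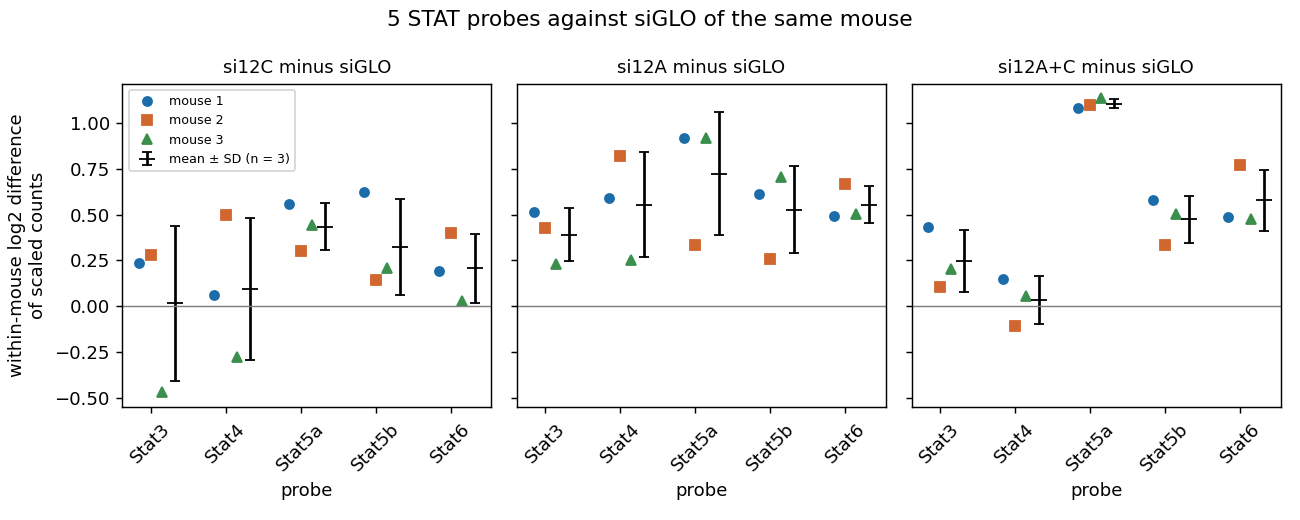
Within-mouse log2 differences of scaled counts (vertical axis) from siGLO for 5 STAT probes (horizontal axis) in si12C, si12A and si12A+C, with points for mice and bars for mean ± SD (n = 3). Stat5a in si12A+C held the 3 closest points, between 1.08 and 1.14, and Stat5b and Stat6 lay below it in every mouse.

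Ratios of 2 probes within a library do not depend on how libraries are scaled. Relative to Stat5b, Stat5a shifted against siGLO by 0.50, 0.77 and 0.63 log2 in si12A+C (mean 0.63 ± 0.13, SD, n = 3), by 0.20 ± 0.12 in si12A and by 0.11 ± 0.16 in si12C. No background was subtracted for these ratios. In mouse 2, which gave the 0.77, Stat5b was near the floor, at 23 raw counts in siGLO and 35 in si12A+C. Relative to Stat3 the shift of Stat5a in si12A+C was 0.86 ± 0.19. Stat6 relative to Stat5a shifted by -0.60, -0.33 and -0.66 in si12A+C (mean -0.53 ± 0.18), so Stat6 gained less than Stat5a in every mouse. In si12A that ratio had no common direction, at -0.43, 0.33 and -0.41.

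Scaling bore on the size of the differences in si12A more than in the other groups. The positive controls, RNAs added in equal amounts, were counted more often in si12A than in siGLO of each mouse. When counts were scaled on them, the median of all tested probes in si12A fell to -0.37. Stat5a then averaged 0.32 ± 0.65 against siGLO (SD, n = 3), with mouse 2 at -0.41, and Stat6 averaged 0.15 ± 0.23, with mouse 2 at -0.08. On all 20 reference genes Stat5a of mouse 2 was at -0.02 in si12A and the means were 0.62 and 0.45. On the 10 reference genes with at least 50 counts in every library the means rose to 0.98 for Stat5a and 0.81 for Stat6, together with a median of 0.27 for all probes. Taken relative to the median of all tested probes, si12A was 0.70 to 0.71 for Stat5a and 0.53 to 0.54 for Stat6. These values are nearly constant by construction, as a scaling shifts all probes of a library alike, and show no stability. In si12A+C Stat5a was above siGLO in 3 of 3 mice under each of them, with means from 1.04 to 1.39, and so was Stat6, with means from 0.51 to 0.86. In si12C Stat5a was likewise higher in 3 of 3 mice, whereas Stat6 fell below siGLO in mouse 3 when scaled on the positive controls (-0.10), on all reference genes (-0.13) or on the well-detected ones (-0.00). The order of si12C and si12A in mouse 2 also hung on the scaling. There si12A minus si12C of Stat5a was 0.04 on TMM and 0.35 on the well-detected reference genes. It was -0.68 on the positive controls and -0.37 on all reference genes. For Stat6 these were 0.27, 0.58, -0.44 and -0.14 in the same order.

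**Figure D3:**
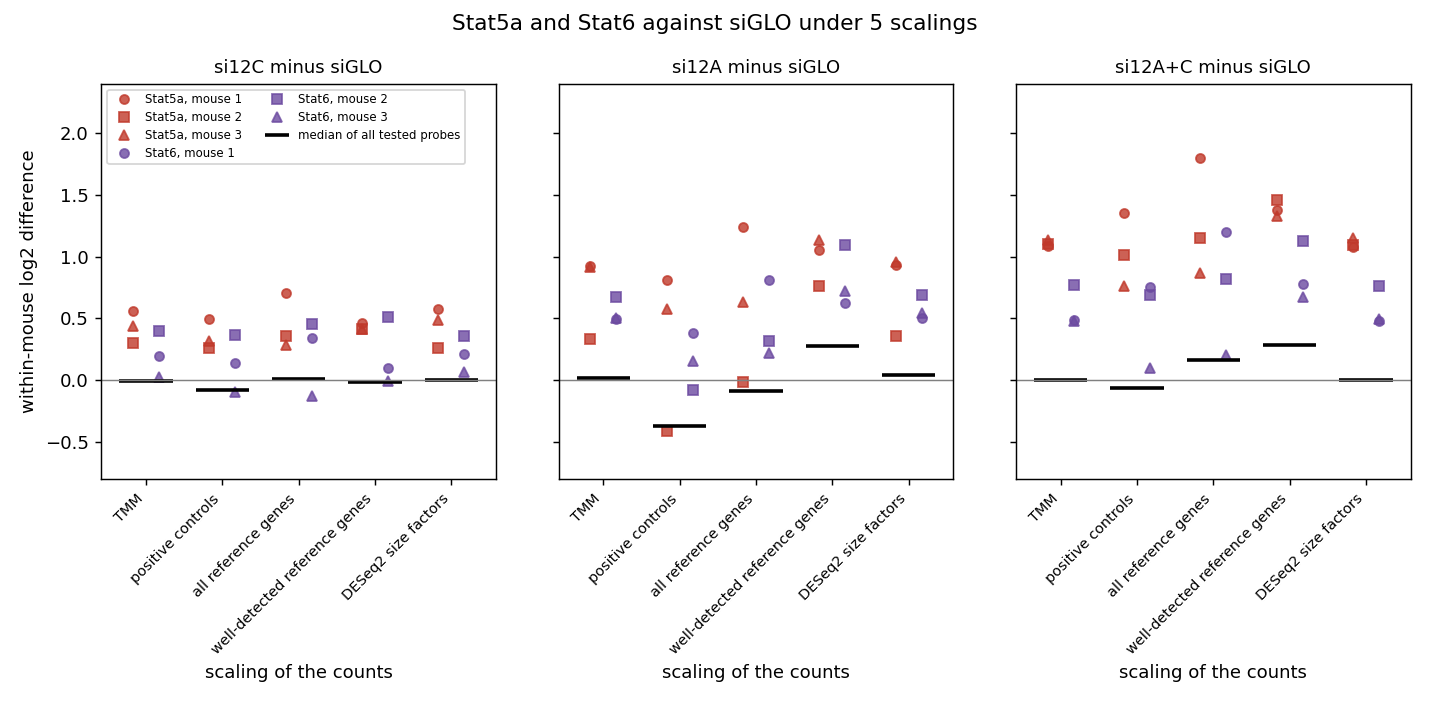
Within-mouse log2 differences (vertical axis) of Stat5a and Stat6 from siGLO under 5 scalings (horizontal axis), with a symbol for each mouse and black bars for the median of all 496 tested probes. In si12A both genes moved with that median, down to -0.37 on the positive controls and up to 0.27 on the well-detected reference genes, while in si12A+C every Stat5a point stayed above 0.

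The authors' own log2 table, which covers fewer probes, held both genes. Nearly all of the difference between mice is absent from it, since its mouse means spread with an SD of 0.00955 against 0.364 in the counts. In it Stat5a was at 7.19, 7.34 and 7.09 in siGLO, 7.74, 7.57 and 7.64 in si12C, 7.98, 7.67 and 8.02 in si12A and 8.20, 8.46 and 8.34 in si12A+C. There siGLO lay below and si12A+C above all other groups, as in 3.08% of the probes of that table, and si12C and si12A overlapped. Stat6 was at 8.49, 8.41 and 8.45 in siGLO, 8.67, 8.67 and 8.59 in si12C, 8.95, 8.93 and 9.02 in si12A and 8.995, 9.071 and 9.001 in si12A+C. Here siGLO lay below all other groups, as in 7.08% of the probes, and only si12A and si12A+C overlapped. Separation of a single pair of groups was common in that table, with 32.6% of probes not overlapping between si12C and siGLO, 60.6% between si12A and siGLO and 45.8% between si12A+C and siGLO.

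The pathway around the STATs was read through 63 panel genes of JAK-STAT signalling, 45 of them tested. Calls needed both an adjusted p no larger than 0.05 and a log2 fold change greater than 0.5 in size. With the block, 5.44% of the 496 tested probes were called in si12A against siGLO (1.81% higher and 3.63% lower), 0.403% in si12C (all of them higher) and 6.05% in si12A+C (3.43% higher and 2.62% lower). With Stat5a and Stat6 left out, since they were chosen on these differences, 0, 0 and 2 of the other 43 tested list genes were called in these comparisons. Their median was 0.02, 0.00 and 0.02, beside 0.01, -0.01 and 0.01 for all tested probes. Without the block 0 of the 496 probes were called in each comparison by edgeR, and 38, 2 and 33 had an unadjusted p under 0.05, of which 3, 0 and 2 were list genes.

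Among 14 tested ligands, Il2, a cytokine that signals through STAT5, averaged 538 ± 304 scaled counts in siGLO and 1545 ± 762 in si12A+C (SD, n = 3) and rose in that comparison by a log2 fold change of 1.60 ± 0.26 (SE, adjusted p = 0.00303). Its log2 fold changes in si12A and si12C, 0.88 ± 0.26 and 1.03 ± 0.26, did not pass (adjusted p = 0.0543 and 0.1499). Il6 and Il13, the most abundant ligands, had 0.36 ± 0.12 and 0.13 ± 0.10 in si12A+C and were not called in any comparison. Csf2, encoding GM-CSF, was lower in si12A than in si12C by -0.80 ± 0.19 (adjusted p = 0.0239, lower in 3 of 3 mice), the only list gene called in that comparison, where 4.84% of all probes were called, 2.42% higher and 2.42% lower.

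Of 10 tested receptors and kinases, 0 were called in any of the 6 comparisons. Il4ra, the receptor chain that recruits STAT6, had log2 fold changes of 0.35 ± 0.12, -0.01 ± 0.12 and 0.01 ± 0.12 in si12A, si12C and si12A+C against siGLO (adjusted p = 0.0676, 0.997 and 0.981). Il10ra and Kit, the most abundant of them, had 0.20 ± 0.12 and 0.11 ± 0.13 in si12A and 0.02 ± 0.12 and -0.24 ± 0.14 in si12A+C. None of these 3 genes passed the test in a comparison with siGLO.

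Inhibitors and target genes of the STATs showed few calls. Among 5 inhibitors Socs2, a feedback inhibitor induced by STAT5, had 0.48 ± 0.13 in si12A (adjusted p = 0.0435), just under the fold threshold, and 0.13 ± 0.13 in si12A+C (adjusted p = 0.654), and Ptprc, the phosphatase CD45, had 0.17 ± 0.13 and 0.14 ± 0.13. Among 5 genes listed as STAT5 targets 0 were called, and their medians in si12A, si12C and si12A+C were -0.06, 0.02 and 0.07. Myc, one of them, had -0.34 ± 0.09 in si12A and -0.38 ± 0.09 in si12A+C (adjusted p = 0.0465 and 0.0257), lower in 3 of 3 mice but within the fold threshold, and Osm had -0.28 ± 0.11 and -0.29 ± 0.11 without passing. Among 8 tested STAT6 targets 1 was called, the chemokine Ccl17, which rose by 0.79 ± 0.17 in si12A+C (adjusted p = 0.0167) from 118.6 ± 123.5 to 207.7 ± 217.5 scaled counts and was higher in 3 of 3 mice. The median of these 8 was -0.17 in si12A, -0.05 in si12C and -0.05 in si12A+C.

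**Figure D4:**
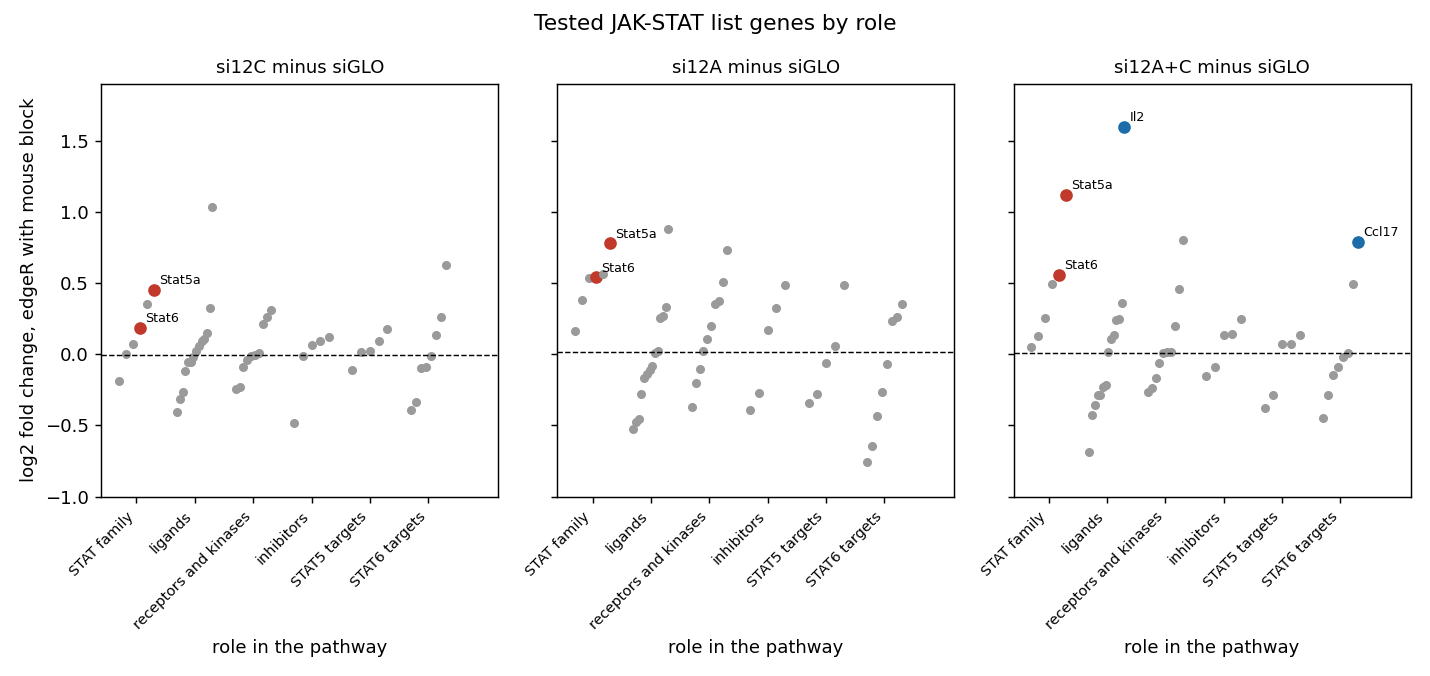
Log2 fold change against siGLO from edgeR with the mouse as a block (vertical axis) for the 45 tested JAK-STAT genes grouped by role (horizontal axis), with Stat5a and Stat6, which carry no test, in red, called genes among the others in blue and a dashed line for the median of all tested probes. In si12A+C Il2 at 1.60 and Ccl17 at 0.79 were called, Stat5a lay at 1.12 and Stat6 at 0.56, and the genes in grey, which were not called, spread on both sides of the line. Genes with 2 roles appear under each.

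In the comparisons between siRNA groups, 0 of these 43 list genes were called in si12A+C against si12A, where 0 of all probes were called (70 had an unadjusted p under 0.05 with the block and 14 without it). In si12A+C against si12C, 3.02% of all probes (1.21% higher and 1.81% lower) and 0 of the 43 were called. Stat5b had 0.14 ± 0.17 in that comparison (adjusted p = 0.755).

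The transcripts whose pattern was most like that of Stat5a over the 12 libraries, after the mean of each mouse was subtracted from log2 values, were Tnfaip3 (r = 0.92), Traf1 (0.89), Stat6 (0.88), Ptgs1 (0.87) and Stat5b (0.85). Among those most like Stat6 were Tnfaip3 (0.95), C3ar1 (0.93), Itga5 (0.89) and Stat5a (0.88). The 12 points share mice, control samples and library scaling, so these values describe likeness only. Stat5a and Stat6 were also both chosen as higher after depletion, so a high r between them follows in part from that choice. Without the subtraction, r with Stat5a was 0.87 for Tnfaip3 and Stat6 and 0.90 for Stat5b but 0.36 for Traf1, and r between Stat6 and Stat5b was 0.94. Tnfaip3, which encodes the deubiquitinase A20, had the same order of groups as Stat5a in each mouse, at 233, 260.1, 269.7 and 304 scaled counts in mouse 1, 61.3, 68.4, 79.7 and 88.6 in mouse 2 and 398, 420.3, 556 and 562 in mouse 3. Its log2 fold changes against siGLO were smaller than those of Stat5a, at 0.13 ± 0.11, 0.36 ± 0.11 and 0.46 ± 0.11 in si12C, si12A and si12A+C. Stat3 and Stat4 were less like Stat5a, with r of 0.51 and 0.12.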

How the data were processed

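The authors deposited raw NanoString counts (Myeloid Innate Immunity Panel v2) for 734 endogenous, 20 reference, 8 negative and 6 positive control probes in 12 samples, with no scaling seen, and a log2 table of 325 probes, used as an alternative. The methods name nSolver 4.0 and Omics Playground. All value columns were mapped to samples (0 unmapped), and columns of the authors' own fold changes and p-values were not used. Only probes counted above background (negative control mean + 2 SD, per library) in 3 or more libraries were kept, 496 in all. Counts were fitted with edgeR 4.0.16 (R 4.3.3, TMM, quasi-likelihood F test, 1 coefficient per group), without and with the mouse as a block, and p-values were adjusted by Benjamini-Hochberg over all 496 within each comparison. The SE is the absolute log2 fold change over the square root of F. limma 3.58.1 and DESeq2 1.42.0 served as alternatives. The fitting steps were tested on simulated data. Total counts of 447310 to 819974 per library set the precision, which is least for low counts, such as those under 100 of Stat4, Stat5a and Stat5b.

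The study design gives 3 mice, and equal replicate numbers were taken as 1 mouse. Deviations from group means correlated from 0.17 to 0.86 over 18 pairs of the same mouse (-0.75 to 0.63 over 36 pairs of different mice), and 12 of 12 libraries correlated best with one of their own mouse. No replicate pair agreed within sampling noise (chi-square per degree of freedom at least 15.0).

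The members, gene lists and tests were chosen with earlier results of these data known. Named were the STAT probes, list genes called with the block, the 2 most abundant tested genes of each role and the 5 probes most like each member (Pearson r of log2 CPM, prior count 2), and some of these are not reported here. Of 754 probes, 733 matched a RefSeq accession (GRCm38.p6) with the same symbol. Scaling, background, filter, tool, table, block and left-out samples were varied.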

Additional observations from a re-analysis of the deposited data

How the results depend on the processing

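With the replicate block, which pairs samples of 1 mouse, the JAK-STAT genes called numbered 2 in si12A, 0 in si12C and 4 in si12A+C against siGLO, 0 in si12A+C against si12A, 1 in si12A+C against si12C and 1 in si12A against si12C, where 0 were called in each without it. These counts, like those of the settings below, include Stat5a and Stat6, which were chosen on these differences and carry no test. With both left out, the block gave 0 in si12A, 0 in si12C and 2 in si12A+C against siGLO. It gave 0 in si12A+C against si12A, 0 in si12A+C against si12C and 1 in si12A against si12C. In the same order the deposited log2 table with limma gave 6, 3, 5, 2, 4 and 3. The block was also joined to other settings, chosen after seeing the data. With the block and the negative control mean subtracted, the counts were 3 in si12A, 0 in si12C, 4 in si12A+C, 0 in si12A+C against si12A, 2 in si12A+C against si12C and 1 in si12A against si12C. With the block and all reference genes they were 0 in si12A, 1 in si12C, 3 in si12A+C, 1 in si12A+C against si12A, 0 in si12A+C against si12C and 1 in si12A against si12C. With the block and the positive controls they were 7 in si12A, 1 in si12C, 2 in si12A+C, 2 in si12A+C against si12A, 0 in si12A+C against si12C and 6 in si12A against si12C. With the block and the well-detected reference genes they were 13 in si12A, 0 in si12C, 10 in si12A+C, 0 in si12A+C against si12A, 6 in si12A+C against si12C and 9 in si12A against si12C. The median of all tested probes was 0.27 in si12A and 0.28 in si12A+C under that scaling, and -0.37 in si12A on the positive controls. The share of all probes called under these scalings is not given, so the counts are no result about the list. Each library or mouse was also left out in turn, and without the block the counts were 0 throughout. With the block they ran from 0 to 5 in si12A, 0 to 1 in si12C, 2 to 4 in si12A+C, 0 to 1 in si12A+C against si12A, 0 to 2 in si12A+C against si12C and 0 to 2 in si12A against si12C.

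The difference between mice was lost in the deposited log2 table, with F = 0.0198 for Stat5a and 0.00588 for Stat6. With a library or mouse left out, F ran from 18.5 to 76.2 for Stat5a and from 0.000231, without mouse 2, to 69.0 for Stat6.

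For Stat5a, moving from TMM to the positive controls gave log2 differences without the block of 0.99 in si12A+C against siGLO and 0.13 in si12A against si12C. The well-detected reference genes gave 1.37 and 0.62 in these, and 0.94 in si12A+C against si12C. For si12A+C against siGLO all reference genes gave 1.22 and subtraction of the negative control mean 1.16. For Stat6 the positive controls gave 0.20 in si12A against siGLO, 0.12 in si12A against si12C and 0.28 in si12A+C against si12A. The well-detected reference genes gave 0.75 in si12A and 0.80 in si12A+C against siGLO, 0.62 in si12A against si12C and 0.66 in si12A+C against si12C. All reference genes gave 0.74 in si12A+C against siGLO, 0.28 in si12A+C against si12A and 0.56 in si12A+C against si12C.

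Without the block, leaving out 1 library unbalances the mice. Stat5a then ran from 0.31 (without si12A mouse 3) to 1.20 (without siGLO mouse 3) in si12A against siGLO, from 0.066 (without si12C mouse 3) to 0.84 (without siGLO mouse 3) in si12C and from 0.69 (without si12A+C mouse 3) to 1.501 (without siGLO mouse 3) in si12A+C. It ran from -0.12 (without si12A+C mouse 3) to 0.80 (without si12A mouse 3) in si12A+C against si12A, from 0.24 (without si12A+C mouse 3) to 1.04 (without si12C mouse 3) in si12A+C against si12C and from -0.13 (without si12A mouse 3) to 0.75 (without si12C mouse 3) in si12A against si12C. Stat6 ran from 0.24 (without siGLO mouse 2) to 0.79 (without si12A mouse 2) in si12A, from -0.12 (without siGLO mouse 2) to 0.40 (without si12C mouse 2) in si12C and from 0.25 (without siGLO mouse 2) to 0.77 (without si12A+C mouse 2) in si12A+C against siGLO. It ran from -0.25 (without si12A mouse 2) to 0.24 (without si12A+C mouse 2) in si12A+C against si12A, from 0.14 (without si12C mouse 2) to 0.60 (without si12A+C mouse 2) in si12A+C against si12C and from 0.13 (without si12C mouse 2) to 0.62 (without si12A mouse 2) in si12A against si12C. With the replicate block the ranges narrowed, for Stat5a to 0.65 to 0.93 in si12A, 0.41 to 0.52 in si12C and 1.04 to 1.19 in si12A+C against siGLO. In si12A+C it was at 1.19 without mouse 1, 1.18 without si12A+C of mouse 1, 1.04 without si12A+C of mouse 2, 1.14 without si12A+C of mouse 3, 1.08 without siGLO of mouse 1 and 1.18 without siGLO of mouse 2. Without mouse 3 Stat6 was at 0.24 in si12A against si12C and at 0.083 in si12A+C against si12A. What lies behind the shifts between scalings was not tested. Depth limits the counts of mouse 2 most, where Stat5a in siGLO was 39.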

Other observations

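Some genes around the STATs were higher in si12A than in si12A+C in 3 of 3 mice. Others went the other way, as Stat5a did. Among these were Il2, Ccl17, Csf2, Il6 and Il13, each higher in si12A+C in 3 of 3. The genes with values below were picked after their values were seen. A common direction in 3 mice was not rare, as 19.2% of all tested probes were higher in si12A+C than in si12A in 3 of 3. The share that was lower in 3 of 3 is not given. Stat4 was lower in si12A+C than in si12A by -0.49 ± 0.19 on the log2 scale (SE, edgeR with the mouse as a block, adjusted p = 0.321), Socs2 by -0.35 ± 0.12 (adjusted p = 0.272), Il4ra by -0.34 ± 0.12 (adjusted p = 0.272) and Kit by -0.34 ± 0.13 (adjusted p = 0.321), and none of them passed. These values follow TMM scaling, and on the positive controls the median of all tested probes in this comparison was at 0.31, close to the size of the differences of Socs2, Il4ra and Kit. Ifnar1, a chain of the receptor for type I interferons, had 0.73 ± 0.21 in si12A against siGLO (adjusted p = 0.0543) and 0.46 ± 0.21 in si12A+C (adjusted p = 0.242). It was higher than in siGLO in 3 of 3 mice in both, as were 25.4% and 20% of all tested probes.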
